A study of Homo sapiens with 18 samples.

Results

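The genes described here encode the oxidative phosphorylation machinery of mitochondria. They were taken by name: every listed symbol that begins with NDUF, UQCR, ATP5 or COX followed by a digit, the 4 possible SDH subunit symbols, CYC1 and CYCS. The rule found 96 of the 13992 genes in the table, and all 96 passed the filter on low values, so none had to be set aside. Of these, 88 are nuclear genes for proteins: 71 code for subunits or cytochrome c and 17 for assembly factors, the proteins that help build a complex but are not part of it. By complex they number 38 in complex I, 3 in complex II, 9 in complex III with cytochrome c, 21 in complex IV and 17 in complex V. The rule also took 8 rows that are not nuclear genes for a distinct protein. COX1, COX2 and COX3 are encoded by the mitochondrial genome itself, NDUFB2-AS1, NDUFV2-AS1 and COX10-DT are noncoding, UQCRHL is a near copy of UQCRH, and NDUFA6_1 is a repeated symbol. SDHB, NDUFS1, NDUFA4L2, COX4I2, COX6A2, COX7A1 and ATP5IF1 were not analysed here.

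Messenger RNA was measured in wild-type HMC3 cells, an immortalized human line used as a model of microglia, left for 24 h without or with oxLDL, low-density lipoprotein whose lipids and protein have been oxidized. There were 6 doses: none (called untreated below), 1, 2.5, 10, 50 and 100 µg/ml. Each dose has 3 libraries, all given the same batch number. Every comparison shares the 3 untreated libraries. The labels do not say whether these came from separate cultures, so p-values measure the spread between libraries, which may be technical. Values are FPKM, reads scaled by transcript length and library total, and folds are log2 fold changes against untreated cells on log2(FPKM + 0.5), each with its standard error (SE) from limma. A gene was called at a Benjamini-Hochberg adjusted p under 0.05 over all 12127 tested genes. Of the markers that define microglia, AIF1, CX3CR1, P2RY12 and TMEM119 were not among the listed genes. CD68, a lysosomal marker of macrophages, had 11.9 to 12.4 FPKM in untreated cells and 14.3 to 15.7 at 100 µg/ml, which did not pass (adjusted p = 0.0512). CD14, a receptor for lipopolysaccharide, fell from 0.976 to 1.17 FPKM in untreated cells to 0.437 to 0.883 (adjusted p = 0.0244). Of 10 pericyte and fibroblast markers 7 were listed, summing to 810 to 846 in untreated cells and 622 to 679 at 100 µg/ml. Most of this sum was COL1A1, with 476 to 525 FPKM in untreated cells and 334 to 374 at 100 µg/ml. At that dose 3 of the 7 were called, PDGFRB, COL1A1 and THY1, all lower. COL1A2, S100A6, CSPG4 and ACTA2 were not (adjusted p from 0.551 to 0.972). In bulk RNA, fewer cells of a type and less RNA per cell cannot be told apart, and the part of such a change in the results below was not tested.

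The respiratory chain moves electrons from NADH through complex I, or from succinate through complex II, to ubiquinone, then through complex III and cytochrome c to oxygen at complex IV. Complexes I, III and IV pump protons out of the mitochondrial matrix, and complex V, the ATP synthase, uses their return to make ATP. Most subunits are encoded in the nucleus and imported, a core set is encoded in mitochondrial DNA, and the finished complexes need matched amounts of both. In microglia, the balance between respiration and glycolysis is known to shift with activation.

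Respiratory chain transcripts were among the abundant messages of untreated cells, and levels differed widely between subunits. The median FPKM in untreated cells was 92.9 for the 71 subunits and 8.95 for the 17 assembly factors, against 6.41 for all tested genes. The highest nuclear transcript in complex I was NDUFS5, an accessory subunit (416 ± 26.1 FPKM, SD, n = 3), and in complex III it was UQCRH, the hinge protein that contacts cytochrome c1 (323 ± 13.9). COX8A, a small complex IV subunit, stood at 521 ± 19.0 and ATP5F1B, the catalytic beta subunit of ATP synthase, at 515 ± 1.07. The 2 do not differ beyond the spread of COX8A.

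Complex II was the smallest group, with SDHD, a membrane anchor, at 108 ± 0.794 FPKM, the other anchor SDHC at 56.5 ± 1.17 and the flavoprotein SDHA at 28.4 ± 0.375. These 3 levels were ordered the same way in all 18 libraries. Mitochondrially encoded COX3, a core subunit of complex IV, reached 4389 ± 203 FPKM, COX1, the catalytic core, 4186 ± 234, and COX2, which receives electrons from cytochrome c, 3505 ± 314. COX3 and COX1 overlapped in their libraries.

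A few levels stand apart from the rest of their complex. ATP5F1E, the epsilon subunit of ATP synthase, was listed at 0.986 ± 0.0714 FPKM from 47 to 116 reads a library, while the next lowest complex V member, ATP5F1A (the alpha subunit), had 64.2 ± 0.705. ATP5F1E overlaps the listed gene TUBB1 on the opposite strand, and the length recovered for it from the table was 3609 bases, against a median of 1107 in complex V. The part of either in its level was not tested. COX6B2, the testis form of a complex IV subunit, was at 1.06 ± 0.072 FPKM and the general form COX6B1 at 239 ± 5.23. Among assembly factors, NDUFAF2 (114 ± 2.23) and NDUFAF8 (81.1 ± 2.19), both for complex I, stood at the level of subunits, and NDUFAF5, a hydroxylase that complex I needs for its assembly, was lowest at 0.683 ± 0.0727.

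**Figure D1:**
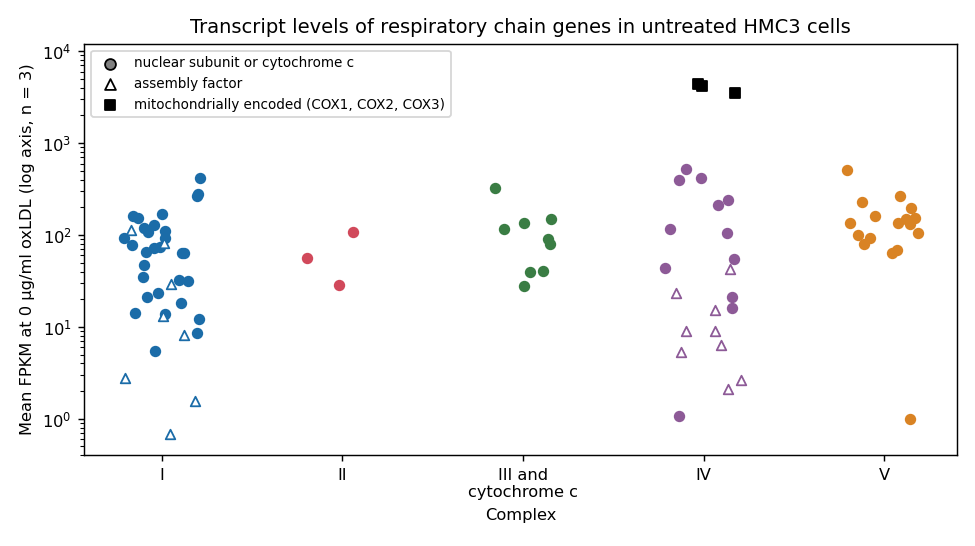
Mean FPKM in untreated cells on a log axis for each member, by complex, with circles for nuclear subunits and cytochrome c, open triangles for assembly factors and black squares for COX1, COX2 and COX3. Most subunits lie above the assembly factors, ATP5F1E and COX6B2 lie near 1, and the 3 mitochondrially encoded genes lie between 3505 and 4389.

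Several rows share sequence with other loci. UQCRHL has no intron, and its 276-base coding sequence matched that of UQCRH at 98.6% of positions, with 4 differing bases. The stretch of bases 145 to 234 of both coding sequences, which holds the 4 differences in capitals, is shown because reads that miss these bases could come from either gene (GENCODE 29 transcripts).
UQCRH: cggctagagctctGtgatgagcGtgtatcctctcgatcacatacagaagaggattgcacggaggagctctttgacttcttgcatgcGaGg
UQCRHL: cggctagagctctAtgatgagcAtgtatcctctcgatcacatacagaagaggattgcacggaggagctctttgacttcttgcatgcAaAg
UQCRH had 310 to 338 FPKM in untreated cells and UQCRHL 12.5 to 15.3, and how reads were divided between them is uncertain. Of 91 members matched to GENCODE 29, 46 have at least 1 pseudogene that carries their name, among them CYCS, cytochrome c, with 40. Listed genes on the opposite strand overlap 29 members, counted over whole gene spans with introns. The library kit named in the labels does not mark strand, so reads from bases that both genes share cannot be told apart. How much of each overlap lies in exons was not examined.

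The promoter windows of the members ran from 250 bases before to 50 after the start in RefSeq (GRCh38.p14). They held motifs of known regulators of respiratory genes, on either strand, more often than the windows of all 27305 genes with an entry. Those include genes not tested here, and the members were not compared with other genes of similar level. Of 88 nuclear members, 73 had a window. The motif of nuclear respiratory factor NRF1, GCGCA and GCGC with any base between, was in 17 of them (23.3%) and in 6.98% of all genes. The ETS motif CCGGAAG, read by GABPA, was in 23 (31.5%, against 12.2%), the YY1 motif ATGGCGG in 21 (28.8%, against 6.66%) and the cyclic AMP response element TGACGTCA in 4 (5.48%, against 2.25%). Each motif was searched on its own, so matches of different motifs may overlap. A match is a description of letters, not of binding. Of 10 nuclear members called at 50 or 100 µg/ml that have an entry, 3 held one of these motifs in the 100 bases before the most upstream start. The other 7 held none there. In the longer windows, however, COX20 held the ETS and YY1 motifs, NDUFA7 YY1 and ATP5F1A ETS. ATP5ME held the NRF1 and ETS motifs and the cyclic AMP element. The 100 bases of those 3 and, for comparison, of 3 of the 7 are shown, in the direction of transcription, with the motifs in capitals. ATP5F1A, ATP5ME, NDUFAF3 and NDUFB1, also without a motif in these 100 bases, are left out.
ATP5MC1, chr17:48892687-48892786, plus strand: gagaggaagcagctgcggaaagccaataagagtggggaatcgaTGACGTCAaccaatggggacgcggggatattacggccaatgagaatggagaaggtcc
ATP5PO, chr21:33915805-33915904, minus strand: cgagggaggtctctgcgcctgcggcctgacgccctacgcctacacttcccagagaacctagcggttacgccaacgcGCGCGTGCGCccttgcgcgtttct
NDUFA1, chrX:119871732-119871831, plus strand: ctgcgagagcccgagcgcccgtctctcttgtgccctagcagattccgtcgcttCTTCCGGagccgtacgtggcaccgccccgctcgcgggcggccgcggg
COX20, chr1:244835206-244835305, plus strand: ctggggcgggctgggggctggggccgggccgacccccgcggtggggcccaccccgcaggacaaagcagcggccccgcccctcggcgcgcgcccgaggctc
NDUFA7, chr19:8321376-8321475, minus strand: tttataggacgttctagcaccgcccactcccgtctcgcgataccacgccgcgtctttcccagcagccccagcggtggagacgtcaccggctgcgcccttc
NDUFAB1, chr16:23596317-23596416, minus strand: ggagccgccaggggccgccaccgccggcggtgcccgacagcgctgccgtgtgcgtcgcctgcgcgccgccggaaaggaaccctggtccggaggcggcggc
Among the 6 windows shown, the cyclic AMP element stands before ATP5MC1, and the NRF1 and ETS motifs, both as reverse complements, before ATP5PO and NDUFA1.

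Libraries differed as wholes before any dose was compared. Recovered depths ran from 13919066 to 37382244 reads, the sums of FPKM from 386396 to 413363, and the members took 0.985 to 1.11% of reads. For each library, the median deviation of the 88 nuclear members from their own means over 18 libraries was taken on the log2 scale. It was 0.092 in untreated replicate 3, with 80 members above their mean and 8 below. It was -0.104 in replicate 3 at 2.5 µg/ml (71 below, 17 above) and -0.101 in replicate 3 at 50 µg/ml (74 below, 14 above). These 3 libraries lay over 0.08 from 0, and the other 15 lay between -0.057 and 0.074.

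The shift was shared by complexes I, III, IV and V. In replicate 3 at 2.5 µg/ml their medians were -0.119, -0.126, -0.104 and -0.091, while complex II, with 3 genes, had 0.003. In replicate 3 at 50 µg/ml complex II had -0.063, on the same side as the others, and in untreated replicate 3 it had -0.015. Short transcripts outside the chain moved with the members: the 730 tested non-members under 1000 bases had medians of 0.076, -0.063 and -0.053 in the same 3 libraries, in the order given above. All tested genes had -0.018, 0.026 and 0.017, the opposite sign. The FPKM sums of these libraries were 412571, 386396 and 395164. The median recovered length was 1486.5 bases for the members and 3901 for all tested genes, and the part of transcript length in the shifts was not tested.

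Within a dose, libraries also separated from their partners, in both directions. Each member's value was set against the median of the other libraries of its dose. At 50 µg/ml, 76 of the 88 members were below in replicate 3 and 73 above in replicate 1. At 2.5 µg/ml, 76 were below in replicate 3, with 76 above in replicate 1 and 72 in replicate 2. At 100 µg/ml, 71 were below in replicate 2 and 67 above in replicate 1. In untreated cells, the shared reference group, 75 were above in replicate 3 and 65 below in replicate 1. The 3 libraries at 10 µg/ml lay closest together, at -0.057, -0.052 and -0.040.

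**Figure D2:**
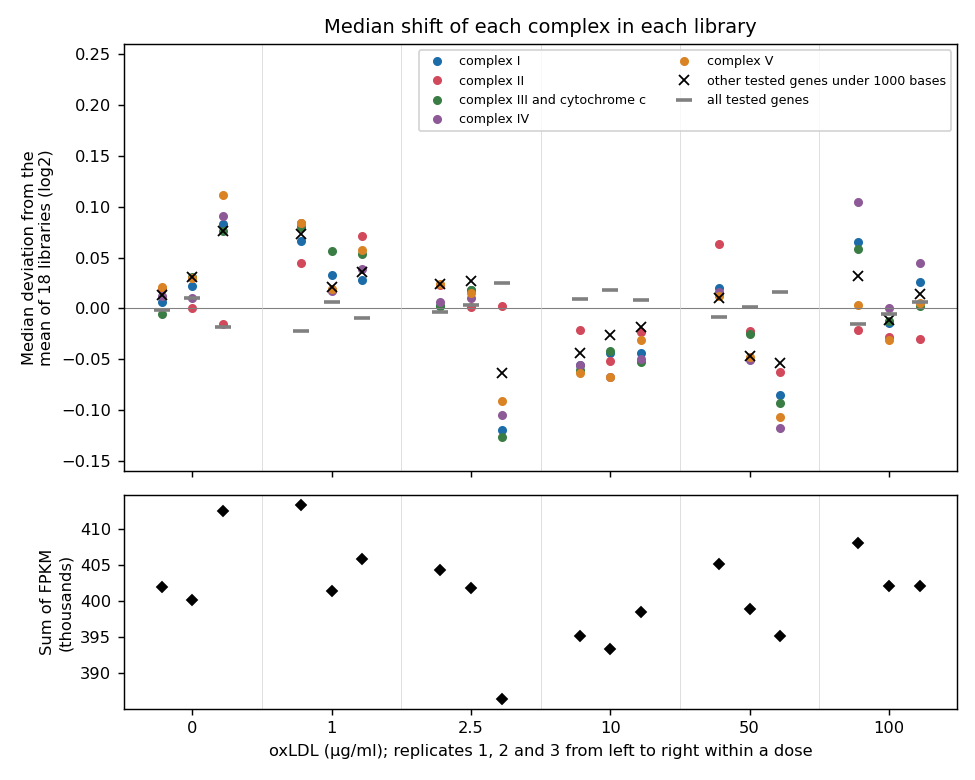
Upper panel: median deviation on the log2 scale of each complex in each of the 18 libraries (coloured circles), of other tested genes under 1000 bases (crosses) and of all tested genes (dashes), with the sum of FPKM of each library below. Replicate 3 in untreated cells is high and replicate 3 at 2.5 and at 50 µg/ml low in complexes I, III, IV and V, and the crosses lie on the same side.

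The largest departures of a single gene in a single library were in genes with few reads. COX6B2 had 0.735 FPKM (25 reads) in replicate 2 at 2.5 µg/ml, with 1.29 and 1.14 in the other libraries of that dose, a departure of -0.47. NDUFB2-AS1 departed by -0.42 in the same library, from 24 reads. UQCRHL had 16.7 FPKM (64 reads) in replicate 3 at 100 µg/ml against 13.2 and 11.7, a departure of 0.41. COX16, which helps to mature COX2, had 5.88 FPKM (198 reads) in replicate 1 at 1 µg/ml against 4.28 and 4.55 (0.38), and NDUFA6_1 departed by 0.35 in replicate 2 at 2.5 µg/ml, from 65 reads.

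At the low doses no member was called. At 1 µg/ml limma called 0 of 96 members, with 0% of all tested genes called. Of the 88 nuclear members 2 had an unadjusted p under 0.05, as did 365 of the 12127 tested genes. The median fold of the 88 was 0.005, which became -0.006 without untreated replicate 1 and 0.032 without untreated replicate 3. At 2.5 µg/ml limma called 0 members, again with 0% of all genes called. There, 20 of the 88 had an unadjusted p under 0.05, as did 531 of the 12127 tested genes and 80 of the 730 short non-members. At 10 µg/ml limma called 0 members with 0.0412% of all genes called. Here 30 of the 88 had an unadjusted p under 0.05, as did 1185 of the 12127 tested genes and 118 of the 730 short non-members. limma-voom on recovered reads also called 0 at each of these doses.

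The values at 2.5 and 10 µg/ml nevertheless lay mostly on 1 side. At 2.5 µg/ml 74 of the 88 nuclear members had a fold below 0, with a median of -0.052 where all tested genes had 0.011 and the short non-members -0.041. That median was -0.019 without replicate 3 at this dose, -0.080 without replicate 2 and -0.032 without untreated replicate 3. All 3 libraries at 2.5 µg/ml were below all 3 untreated ones in 17 members (19.3%), against 3.51% of all tested genes and 7.81% of the short non-members. At 10 µg/ml 81 of the 88 had a fold below 0, with a median of -0.083 where all tested genes had 0.016. In 38 members (43.2%) all 3 libraries at 10 µg/ml were below all 3 untreated ones, which held for 6.84% of all tested genes and for 15.6% of the 730 short non-members. The members share libraries, so this is no count of independent changes, and the short non-members had a median of -0.073. UQCRQ, a small complex III subunit, gave an example: 91.5, 84.6 and 93.5 FPKM in untreated cells and 78.0, 81.1 and 78.0 at 10 µg/ml, without overlap. Its fold of -0.18 (SE 0.047) lay further from 0 than the median of -0.083 and did not pass (adjusted p = 0.407).

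At 50 µg/ml, 7 members fell and 0 rose, a share of 7.29% lower where 3.69% of all tested genes were called lower and 3.78% higher. The 7 were the complex I subunits NDUFA1, NDUFA7 and NDUFB1, the complex IV assembly factor COX20 and the ATP synthase subunits ATP5F1D, ATP5MC1 and ATP5ME. At an unadjusted p under 0.05 there were 24 of the 88 nuclear members, 2656 of the 12127 tested genes and 139 of the 730 short non-members. Among the members, limma-voom also called 7 lower and 0 higher. Of the 88, 73 had a fold below 0 and the median was -0.071, against 0.004 for all tested genes and -0.074 for the short non-members. The median of the 88 was -0.045 without replicate 3 at 50 µg/ml, -0.108 without replicate 1 and -0.046 without untreated replicate 3. All 3 libraries at 50 µg/ml were below all 3 untreated ones in 21 members (23.9%), against 13.3% of all tested genes and 15.1% of the short non-members. Without 1 untreated library the count of 7 was 3, 4 or 2 (replicates 1, 2 and 3 in turn). It was 3 or 2 without replicate 2 or 3 at 50 µg/ml. The 448 genes called lower among all tested ones also became fewer in these fits: 216, 293, 255, 297 and 257 in the same order. Without the 3 libraries that lay over 0.08 from 0, 1 member was called, COX20, with 212 of all tested genes called lower. The median of the 88 was then -0.021.

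At 100 µg/ml, 7 members fell, 7.29% where 7.51% of all tested genes were called lower, and 1 rose, where 7.94% were called higher. The fallers were NDUFA7, the complex I assembly factor NDUFAF3, COX20, mitochondrially encoded COX3, and ATP5F1A, ATP5F1D and ATP5PO of ATP synthase. The riser was NDUFAB1, the mitochondrial acyl carrier protein, which is also a subunit of complex I. Of the 88 nuclear members 54 had a fold below 0 and 34 above, with a median of -0.018, against -0.004 for all tested genes. The size and sign of that median rest on single libraries: it was -0.030 without untreated replicate 1 and 0.003 without untreated replicate 3, and -0.039 without replicate 1 and -0.0009 without replicate 2 at 100 µg/ml. All 3 libraries were below all 3 untreated ones in 17 members (19.3%), against 16.9% of all tested genes and 11.9% of the short non-members. The count of 7 was 3 without untreated replicate 3 and 4 without replicate 2 at 100 µg/ml. The 911 genes called lower among all tested ones became 743 and 786 in these fits. NDUFAB1 was not called when untreated replicate 1 or either of replicates 1 and 3 at 100 µg/ml was dropped (adjusted p = 0.0775, 0.0817 and 0.0679), and NDUFAF4 was also called higher without replicate 1 at 10 µg/ml.

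**Figure D3:**
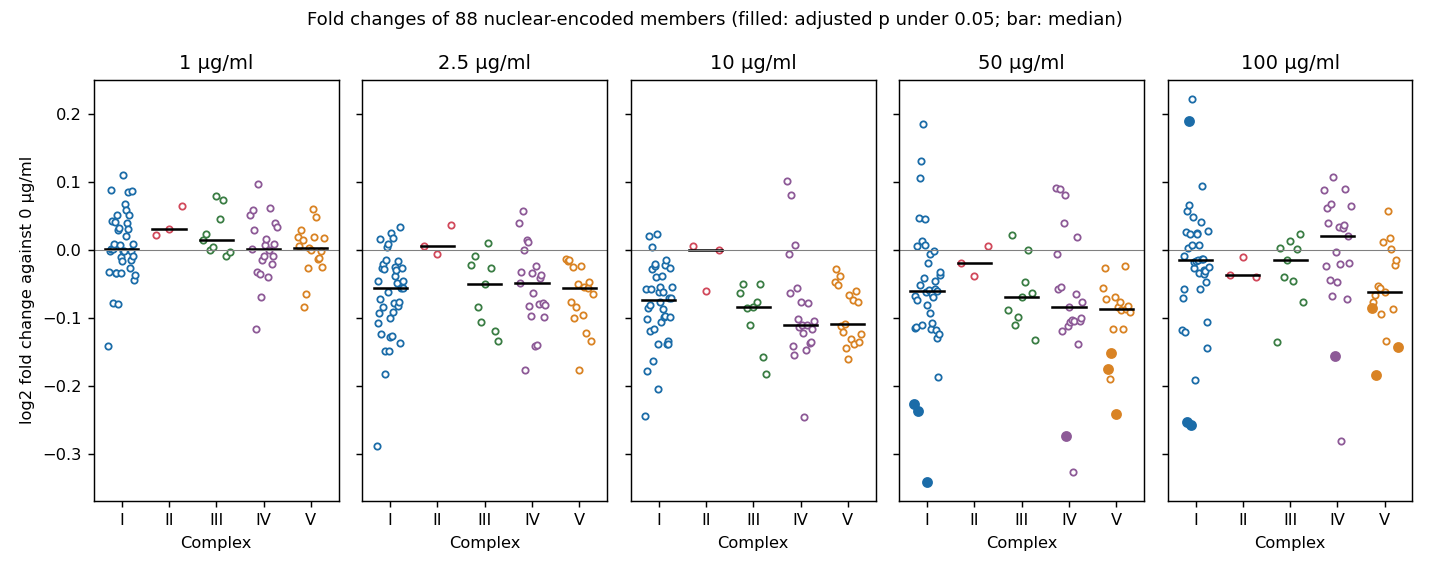
Log2 fold changes against untreated cells of the 88 nuclear members at each dose, by complex, with filled circles for adjusted p under 0.05 and a bar at the median of the complex. Values spread around 0 at 1 µg/ml, most lie below 0 at 2.5, 10 and 50 µg/ml, and complexes I, III and IV return near 0 at 100 µg/ml.

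Complex I takes electrons from NADH and has a core that transfers electrons, a ring of accessory subunits and its own assembly factors. The median fold of its 38 nuclear members was -0.061 at 50 µg/ml. At 100 µg/ml it stood near 0, with -0.015. The second value was 0.010 without untreated replicate 3 and 0.002 without replicate 2 at 100 µg/ml, so its sign depends on single libraries. Of the 30 subunits 3 fell at 50 µg/ml, and 1 fell and 1 rose at 100 µg/ml.

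NDUFA7, an accessory subunit (chromosome 19, 8308595 to 8321375 in GRCh38.p14), had 32.6, 29.3 and 32.8 FPKM in untreated cells. At 50 µg/ml the libraries gave 28.95, 26.1 and 25.1, and at 100 µg/ml 24.8, 26.4 and 27.9. Both doses lay wholly below untreated cells. The fold was -0.24 at 50 µg/ml (SE 0.053, adjusted p = 0.0119), then -0.25 at 100 µg/ml (adjusted p = 0.00354). The call at 50 µg/ml was lost when untreated replicate 1 or 3, or the third replicate at 50 µg/ml, was dropped (adjusted p = 0.0621, 0.061 and 0.0703), whereas that at 100 µg/ml held in all 30 other settings. RPS28, a ribosomal protein gene that overlaps it on the opposite strand, had folds of -0.04 and 0.06 (adjusted p = 0.735 and 0.544).

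NDUFB1, an accessory subunit of the membrane arm (chromosome 14, 92116123 to 92121706), had 63.2, 64.0 and 65.5 FPKM in untreated cells and 56.8, 48.4 and 47.2 at 50 µg/ml. The groups did not overlap, and replicates 2 and 3 lay well below replicate 1. Its fold of -0.34 (SE 0.066, adjusted p = 0.00469) was the largest fall among the members called at 50 µg/ml. At 100 µg/ml it had 55.6, 52.7 and 60.5 FPKM, again below every untreated library, with a fold of -0.19 that did not pass (adjusted p = 0.0617). NDUFA1, which is needed to assemble the membrane arm (chromosome X, 119871832 to 119876662), had 164, 160 and 178 FPKM in untreated cells and 159, 135 and 136 at 50 µg/ml. The gap between 160 and 159 is narrow: the fold was -0.23 (SE 0.064, adjusted p = 0.0419), and the call was lost in 11 of 30 settings, with folds of -0.26 to -0.15, among them without any 1 of the untreated libraries (adjusted p = 0.0895, 0.0508 and 0.173 in turn) or with libraries centred on their medians (0.0508). Its libraries at 2.5 µg/ml gave 140, 140 and 131 FPKM, below every untreated library, with a fold of -0.29 that did not pass (adjusted p = 0.93).

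NDUFAB1 (chromosome 16, 23581014 to 23596316) was the member that rose. It had 90.6, 94.8 and 93.1 FPKM in untreated cells, 97.6, 100.3 and 102 at 50 µg/ml, then 110, 100.4 and 107 at 100 µg/ml. Every library at the higher doses was above every untreated library, with folds of 0.11 at 50 µg/ml (SE 0.052, adjusted p = 0.242) and 0.19 at 100 µg/ml (adjusted p = 0.0189). Its lowest value, 80.5, was in replicate 3 at 2.5 µg/ml, the library in which most members were low.

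No core subunit of complex I was called at 50 or 100 µg/ml, while NDUFV1, NDUFS7 and NDUFS8 had falling slopes over dose (adjusted p = 0.00794, 0.0388 and 0.00294) and NDUFS7 was called over all 6 doses (adjusted p = 0.0459). NDUFV1, which binds NADH, had 118 to 123 FPKM in untreated cells and 109 to 116 at 100 µg/ml, a fold of -0.11 (SE 0.043, adjusted p = 0.114). NDUFS8, an iron-sulfur subunit, had 109 to 114 FPKM in untreated cells and 93.0 to 102 at 50 µg/ml, without overlap (fold -0.19, SE 0.056, adjusted p = 0.0525). It was called in 9 of 30 other settings.

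Of the 8 complex I assembly factors, NDUFAF3 was called at 100 µg/ml and none at 50 µg/ml. NDUFAF2 and NDUFAF3 were called over all 6 doses, and NDUFAF4 had a rising slope over dose. NDUFAF3, which acts early in building the membrane-associated part (chromosome 3, 49020452 to 49023495), had 30.6, 27.7 and 30.5 FPKM in untreated cells and 23.2, 25.5 and 25.4 at 100 µg/ml. It fell by 0.26 on the log2 scale (SE 0.062, adjusted p = 0.00852) and was called in all 30 other settings. DALRD3, on the opposite strand, fell too (fold -0.22, SE 0.059, adjusted p = 0.0162), from a mean of 4.30 FPKM, and reads of the overlap cannot be assigned. NDUFAF4, which is known to bind NDUFAF3, had 8.55, 7.43 and 8.71 FPKM in untreated cells and 9.49, 9.80 and 9.70 at 100 µg/ml. Its fold of 0.22 (SE 0.081, adjusted p = 0.0751) did not pass. The other 6 factors (NDUFAF1, NDUFAF2 and NDUFAF5 to NDUFAF8) had folds of -0.03 to 0.07 at 100 µg/ml, with adjusted p from 0.577 to 0.974.

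Complex II, which also works in the tricarboxylic acid cycle, showed small differences. SDHA (chromosome 5, 218320 to 268746) had 28.7, 28.5 and 27.97 FPKM in untreated cells and 27.4, 27.8 and 27.7 at 100 µg/ml, without overlap. Its fold was -0.04 (95% interval -0.09 to 0.01, adjusted p = 0.354). SDHC had a fold of -0.01 (interval -0.09 to 0.07) and SDHD of -0.04 (interval -0.13 to 0.05). Over the 5 doses the folds of these 3 genes ran from -0.06 to 0.06.

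In complex III and cytochrome c, 0 of 9 members were called at 50 or 100 µg/ml, and limma-voom also called 0. At an unadjusted p under 0.05 there were 2 and 1 of them, against 2656 and 3403 of the 12127 tested genes. The median of the 9 was -0.069 at 50 µg/ml, then -0.015 at 100 µg/ml. The second became 0.005 without untreated replicate 3 and 0.003 without replicate 3 at 100 µg/ml. CYC1, cytochrome c1, had 143, 151 and 151 FPKM in untreated cells and 141, 132 and 133 at 100 µg/ml, without overlap, with a fold of -0.14 (SE 0.045, adjusted p = 0.0534) that passed in 7 of 30 settings. UQCRQ was called over all 6 doses. At 50 µg/ml it was called in 1 of 30 other settings, without replicate 1 at that dose (adjusted p = 0.0203). UQCRC1, a core protein, UQCRFS1, the Rieske iron-sulfur protein, and UQCR10 and UQCR11, small subunits, had folds at 100 µg/ml of -0.05, 0.001, -0.04 and -0.02. CYCS had 38.4, 40.1 and 39.3 FPKM in untreated cells and 39.3, 39.4 and 39.3 at 100 µg/ml, a fold of 0.003 (95% interval -0.10 to 0.10).

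In complex IV, subunits and assembly factors differed in their medians. The 12 nuclear subunits had a median of -0.104 at 50 µg/ml and 0.009 at 100 µg/ml, with 0 called at either dose by limma or limma-voom. At an unadjusted p under 0.05 there were 3 and 1 of them, against 2656 and 3403 of the 12127 tested genes. The 9 assembly factors had medians of -0.006 and 0.040, with COX20 called at both doses. The difference between these groups was not tested. Their median recovered lengths were 1233 and 2898 bases, and the part of length was not tested. Complex I had a like split: its 30 subunits had medians of -0.069 and -0.020 at 50 and 100 µg/ml, and its 8 assembly factors 0.010 and 0.015. Over all 21 complex IV members the median at 100 µg/ml was 0.020, and it was -0.019 without untreated replicate 1.

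COX20 (chromosome 1, 244835306 to 244845063), which stabilizes newly made COX2, had the smallest adjusted p among the members at 50 µg/ml. Its libraries gave 23.0, 22.9 and 23.5 FPKM in untreated cells and 19.4, 19.6 and 18.2 at 50 µg/ml. They gave 21.4, 20.5 and 20.3 at 100 µg/ml, between the other groups and overlapping neither. The fold was -0.27 at 50 µg/ml (SE 0.034, adjusted p = 0.000113), then -0.16 at 100 µg/ml (adjusted p = 0.00483). Both calls held in all 30 other settings, with a highest adjusted p of 0.00566 and 0.0282. HNRNPU, which overlaps COX20 on the opposite strand at a mean of 120 FPKM, had folds of -0.01 and -0.05 (adjusted p = 0.923 and 0.233).

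No nuclear subunit of complex IV was called at 50 or 100 µg/ml. COX4I1, a regulatory subunit, had 204, 207 and 218 FPKM in untreated cells, 201, 195 and 186 at 50 µg/ml, then 213, 203 and 212 at 100 µg/ml, with a fold at 100 µg/ml of -0.003 (95% interval -0.10 to 0.09). COX5A, COX6A1, COX6B1, COX7A2, COX7B and COX8A had folds between -0.14 and -0.07 at 50 µg/ml and between -0.07 and 0.04 at 100 µg/ml. None of these passed, with adjusted p at or above 0.111. NDUFA4, once assigned to complex I and now counted in complex IV, had 0.06 (adjusted p = 0.532) at 100 µg/ml, and COX7A2L, a supercomplex factor, 0.09 (adjusted p = 0.154). COX6B2 had the widest fold among these subunits, -0.28 at 100 µg/ml (SE 0.138, adjusted p = 0.196), from 25 to 65 reads a library.

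Apart from COX20, no complex IV assembly factor was called at 50 or 100 µg/ml, and COX17 was called over all 6 doses. COX10 and COX15, which make heme A, had folds of 0.09 and 0.04 at 100 µg/ml, and COX11, a copper factor, -0.02. COX17, the copper chaperone, had 16.2, 14.4 and 15.4 FPKM in untreated cells, 13.4 to 15.6 at 50 µg/ml and 15.6 to 16.9 at 100 µg/ml (fold 0.07, adjusted p = 0.527). COX14, COX16, COX18 and COX19 had folds between -0.07 and 0.11 at 100 µg/ml, with adjusted p from 0.398 to 0.824.

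In complex V, ATP synthase, all 17 genes had a fold below 0 at 2.5, 10 and 50 µg/ml, and 13 at 100 µg/ml. They share libraries, so this is no count of independent changes. Of the 730 short non-members, 459, 502, 495 and 438 had a fold below 0 at these doses in turn. Their medians were -0.041, -0.073, -0.074 and -0.033. All 12 nuclear subunits of complex IV were also below 0 at 2.5 and 10 µg/ml, then 11 and 6 at 50 and 100 µg/ml. The median of the 17 complex V genes was -0.086 at 50 µg/ml, -0.054 without replicate 3 at that dose and -0.033 without the 3 libraries far from 0. It was -0.063 at 100 µg/ml and -0.037 without untreated replicate 3. At 50 µg/ml 3 of the 17 fell and 0 rose, where 3.69% of all tested genes were called lower. At 100 µg/ml 3 fell and 0 rose, where 7.51% were called lower, with ATP5F1D called at both doses.

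ATP5F1D, the delta subunit of the central stalk (chromosome 19, 1241751 to 1244825), had 103, 101 and 110 FPKM in untreated cells. It had 95.2, 90.4 and 92.1 at 50 µg/ml, then 95.3, 89.8 and 91.2 at 100 µg/ml, all below the untreated ones. The folds were -0.18 at each dose (SE 0.0455, adjusted p = 0.0265 and 0.0105). The call at 50 µg/ml was lost when untreated replicate 1 or 3 (adjusted p = 0.0638 and 0.125) or the second or the third at 50 µg/ml (0.0946 and 0.0851) was dropped, and that at 100 µg/ml without untreated replicate 3 (0.0592).

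ATP5PO, the oligomycin sensitivity protein that joins head and peripheral stalk (chromosome 21, 33903453 to 33915804), had 258, 263 and 273 FPKM in untreated cells and 251, 236 and 232 at 100 µg/ml. The groups did not overlap, and the fold was -0.14 (SE 0.042, adjusted p = 0.0267). The call was lost when untreated replicate 2 or 3 or the same replicates at 100 µg/ml were dropped (adjusted p from 0.0572 to 0.117) and with libraries centred on their medians (0.0651). ATP5F1A (chromosome 18, 46080248 to 46104227) had 63.6, 65.0 and 64.1 FPKM in untreated cells and 62.0, 59.9 and 59.6 at 100 µg/ml. Its fold of -0.09 (SE 0.028, adjusted p = 0.0481) passed in the fit of all libraries, but the call was lost in 21 of 30 other settings, among them with any untreated library dropped, up to an adjusted p of 0.162. HAUS1, on its opposite strand, had a fold of -0.17 at 100 µg/ml (SE 0.055, adjusted p = 0.0437). ATP5F1B had 514, 516 and 515 FPKM in untreated cells and 496, 493 and 478 at 100 µg/ml, without overlap, and a fold of -0.08 (SE 0.028, adjusted p = 0.0788) that did not pass.

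ATP5ME and ATP5MC1 fell at 50 µg/ml. ATP5ME, a subunit of the membrane part (chromosome 4, 672436 to 674276), had 139, 157 and 157 FPKM in untreated cells and 137, 126 and 120 at 50 µg/ml. It stood at 144, 143 and 147 at 100 µg/ml, inside the untreated range. The fold at 50 µg/ml was -0.24 (SE 0.065, adjusted p = 0.0307), and the call was lost in 7 of 30 settings, among them without untreated replicate 2 or 3 (0.105 and 0.121) and with replicate 2 or 3 at 50 µg/ml dropped (0.0865 and 0.149). ATP5MC1, a gene of the proton-carrying c ring (chromosome 17, 48892787 to 48895871), had 150, 153 and 158 FPKM in untreated cells and 146, 138 and 132 at 50 µg/ml. Its fold was -0.15 (SE 0.045, adjusted p = 0.0484). The call was lost in 21 of 30 settings, among them with any untreated library dropped, with folds of -0.17 to -0.10 and adjusted p up to 0.314.

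**Figure D4:**
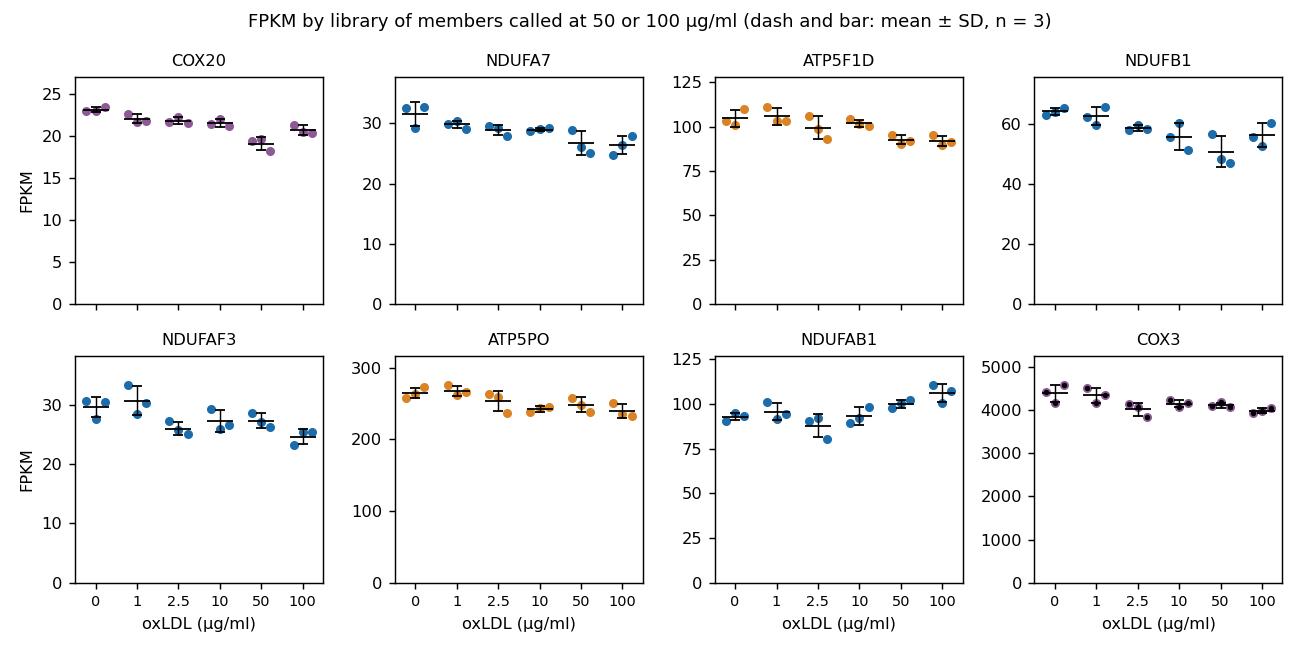
FPKM of 8 members called at 50 or 100 µg/ml in each library (points) by dose, with the mean and SD of 3 libraries (dash and bar) and axes that start at 0. COX20, NDUFA7, ATP5F1D and NDUFB1 lie lower at 50 and 100 µg/ml than in untreated cells, NDUFAB1 lies higher, and the shifts are small beside the level of each gene.

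Over all 6 doses together, the test of any difference called 13 members (13.5%), where 15.4% of all tested genes were called. COX20 had the smallest adjusted p of 0.000545. The count was 6 to 8 without untreated replicate 1 or 3 (7 and 8), replicate 1 at 1 µg/ml (8), replicate 2 at 10 µg/ml (7), replicate 2 at 50 µg/ml (8) or replicate 3 at 100 µg/ml (6). Some of the 13 were lowest at middle doses: COX17 had means of 15.4, 15.0, 13.5, 13.7, 14.1 and 16.1 FPKM from no oxLDL to the top dose (adjusted p = 0.0394). NDUFAF2 had 114, 111, 103, 102, 115 and 116 (adjusted p = 0.0231). Both were lowest at 2.5 and 10 µg/ml and near or above the untreated mean at 100 µg/ml.

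A straight line on log2(dose + 1) called 17 members falling (17.7%, where 12.6% of all tested genes were called) and 2 rising (2.08%, where 13.0% were called). NDUFA7 had the smallest adjusted p, with a slope of -0.035 per unit of log2(dose + 1) (SE 0.0061, adjusted p = 0.000233), followed by COX20 (-0.030, SE 0.0056, adjusted p = 0.00046) and ATP5F1D (-0.030, SE 0.0057, adjusted p = 0.000504). The catalytic pair ATP5F1A (-0.014) and ATP5F1B (-0.010) were called falling, as were CYC1 (-0.021), NDUFV1 (-0.019) and NDUFS8 (-0.028). The risers were NDUFAB1 (0.028, SE 0.0075, adjusted p = 0.00935) and NDUFAF4 (0.035, SE 0.010, adjusted p = 0.0132). No falling slope was called in complex II. Over the other settings 12 to 19 members had a falling slope and 2 or 3 a rising one.

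**Figure D5:**
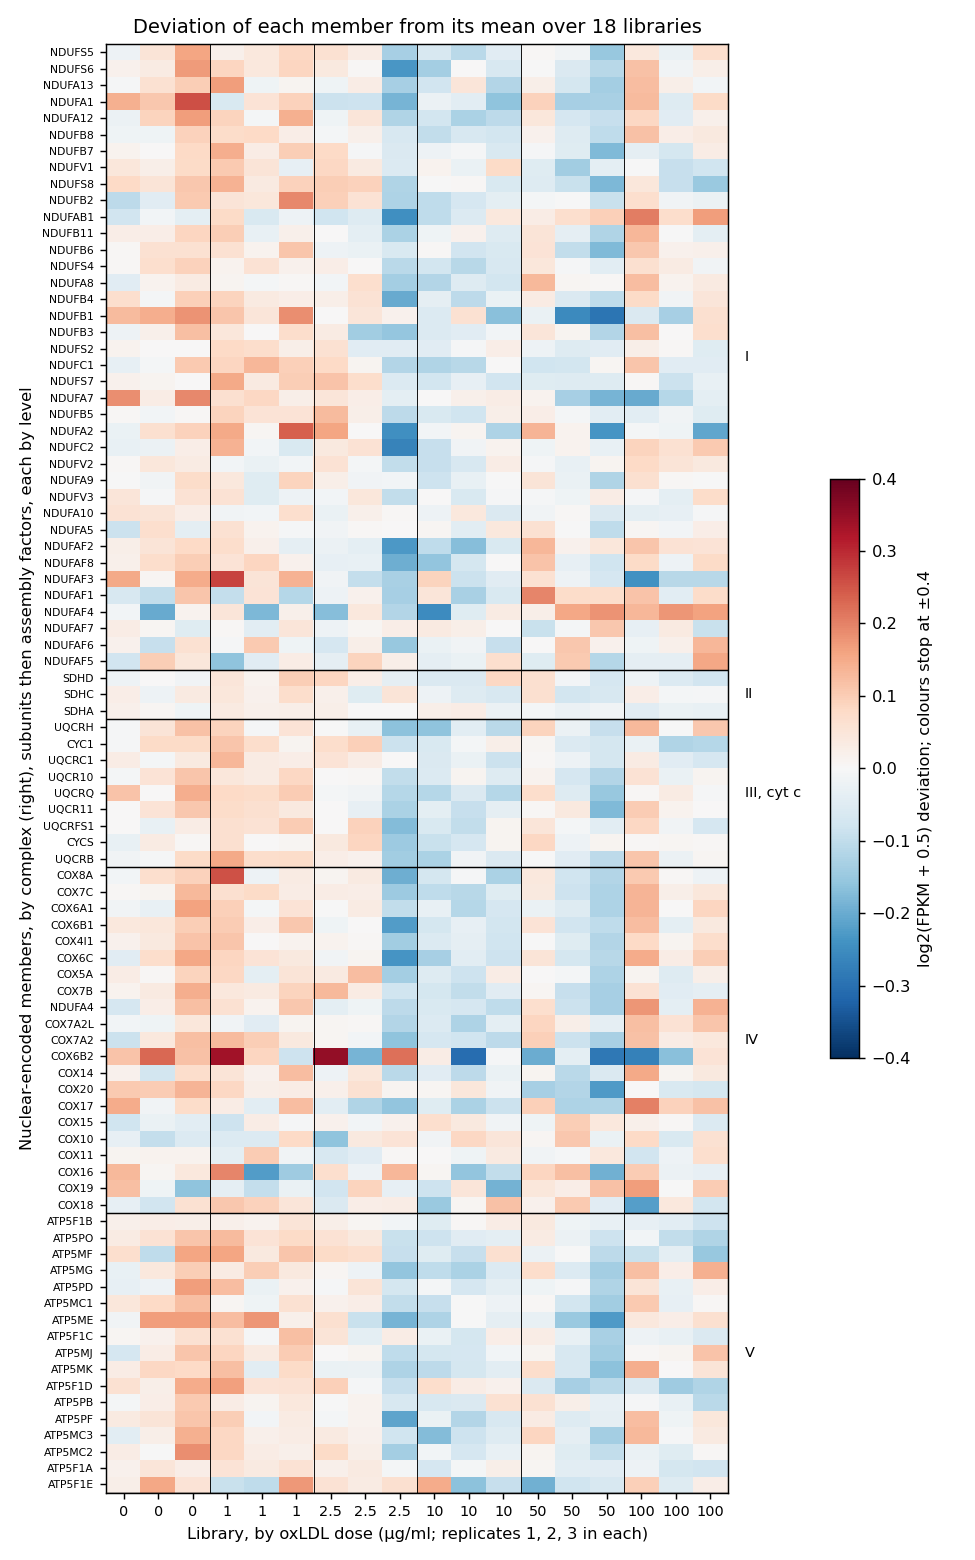
Deviation of log2(FPKM + 0.5) from each gene's mean, for 88 nuclear members (rows, by complex) in 18 libraries (columns, by dose). Whole columns stand out, red in untreated replicate 3 and blue in replicate 3 at 2.5 and at 50 µg/ml, while NDUFAB1 and NDUFAF4 turn red at 100 µg/ml and NDUFA7 blue.

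The subunits encoded in mitochondrial DNA, which join the nuclear ones in the same complexes, were measured for 13 genes. They took 2.72 to 3.25% of reads, least in replicate 3 at 2.5 µg/ml and most in untreated replicate 3, as for the nuclear members, but 3.04% in replicate 3 at 50 µg/ml, where the nuclear members were low. At 100 µg/ml 1 of 13 fell (7.69%, where 7.51% of all tested genes were called lower) and 0 rose (where 7.94% were called higher). At 50 µg/ml limma and limma-voom called 0, with 1 at an unadjusted p under 0.05, against 2656 of the 12127 tested genes. At 2.5 µg/ml 0 were called, but all 13 had a fold below 0, with a median of -0.120. There, 5 had an unadjusted p under 0.05, against 531 of the 12127. COX3 had 4419, 4173 and 4575 FPKM in untreated cells and 3945, 3977 and 4046 at 100 µg/ml, without overlap (fold -0.14, SE 0.041, adjusted p = 0.0303). The call was lost in 9 of 30 settings: dropping untreated replicate 1 or 3 or any library at 100 µg/ml gave adjusted p from 0.0603 to 0.129, and centring on library medians gave 0.0841. COX1 had a fold of -0.04 (adjusted p = 0.601) and COX2 of -0.09 (adjusted p = 0.321).

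Other genes of the pathway were taken from lists that were chosen with earlier results of these data known. At 100 µg/ml, 7.94% of all tested genes were called higher and 7.51% lower. Of 38 tested assembly factors outside the naming rule, 3 rose (7.89%) and 1 fell (2.63%) at that dose, with a median fold of 0.039. COA6, a copper factor for complex IV, went from 8.60 ± 0.38 to 11.3 ± 0.65 FPKM (fold 0.38, SE 0.071, adjusted p = 0.0015), COA7 had 0.14 (adjusted p = 0.0122) and the complex I factor TMEM126B 0.17 (adjusted p = 0.0224). FOXRED1, another complex I factor, fell at 50 and 100 µg/ml (-0.17 and -0.16, adjusted p = 0.00527 and 0.00291). Of 20 tested regulators of respiratory genes and mitochondrial transcription 1 rose and 0 fell at this dose (median 0.027; 3 rose by limma-voom): ESRRA, a nuclear receptor that drives these genes, went from 8.62 ± 0.346 to 10.2 ± 0.398 FPKM (fold 0.23, SE 0.058, adjusted p = 0.0114). NRF1, GABPA, YY1 and TFAM had folds between -0.05 and 0.04 at 100 µg/ml, and none passed.

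Coenzyme Q, the carrier between complexes I or II and III, is made by a dedicated set of enzymes. Of 13 tested, 2 rose and 2 fell at 100 µg/ml (15.4% each, median -0.080): COQ8A (0.22, adjusted p = 0.0156) and COQ10B (0.25, adjusted p = 0.00151) rose, and COQ2 (-0.27, adjusted p = 0.00244) and COQ8B (-0.31, adjusted p = 0.00947) fell. Of 19 tested enzymes of pyruvate entry and the tricarboxylic acid cycle, 4 fell (21.1%) and 1 rose (5.26%), with a median of -0.047. The fallers were PC, pyruvate carboxylase, from 4.49 ± 0.0589 to 3.32 ± 0.0336 FPKM (fold -0.39, SE 0.054, adjusted p = 0.000121), IDH2 (-0.27, adjusted p = 0.00222), PDHB (-0.16, adjusted p = 0.0269) and DLD (-0.12, adjusted p = 0.0426). DLST rose (0.09, adjusted p = 0.0442). The genes called in these 4 lists were named after their values were seen.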

How the data were processed

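The authors deposited FPKM for 18 libraries; per the submitters' processing notes the tools were featureCounts, DESeq2 and HISAT2 2.0.5 and the build hg38, with no roles stated, and the annotation and strand setting are not given in the sources used here. Whole reads were recovered from the steps of the deposited FPKM (all 13992 genes within 0.05 reads; the scale rests on RefSeq lengths, which were equal for 72.0% of 407 single-exon genes) and served for depth, lengths and limma-voom, which called 621 genes higher and 626 lower at 50 µg/ml, with 1119 higher and 918 lower at 100 µg/ml.

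The 12127 genes that reached 0.5 FPKM in 3 or more libraries were fitted on log2(FPKM + 0.5), which understates changes of low genes, with limma 3.58.1 (R 4.3.3): all 6 doses together, 12 residual degrees of freedom, eBayes with trend, two-sided tests, Benjamini-Hochberg over all tested genes. On simulated data for 100 against 0 µg/ml (12127 genes) it recovered 7.35% of changes of 0.15, 50.0% of 0.3 and 98.5% of 1 (log2). No replicate pair agreed within counting noise.

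Members and lists were chosen with earlier results of these data known. Named are, in each complex, the 4 members with the smallest adjusted p at 100 µg/ml and 2 more at 50 µg/ml, the highest and lowest by level, those fixed by symbol, and the 5 largest single-library departures. The alternatives changed the pseudocount, filter, scaling, variance model, replicate block and libraries. The summed level of the microglia marker list is not reported here.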

Additional observations from a re-analysis of the deposited data

How the results depend on the processing

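The 30 other settings gave 0 members called at 1, 2.5 and 10 µg/ml and 0 called higher at 50 µg/ml, as in the fit reported. No called fold changed direction. Of 99 folds of named members that were not called, 32 changed sign in at least 1 setting and 6 were called in at least 1. Of 15 called folds 11 were lost in at least 1 setting, and COX20 at 50 and 100 µg/ml and NDUFA7 and NDUFAF3 at 100 µg/ml were called in all 30. Members called lower at 50 µg/ml (7) were 4 with only the 2 doses compared and 4 with eBayes without trend, and 2 to 9 when 1 library was left out. Members called higher at 100 µg/ml (1) were 2 with only the 2 doses compared, 2 by limma-voom and 0 to 2 with 1 library left out. Members called lower at 100 µg/ml (7) were 4 with libraries centred on their medians and 3 to 9 with 1 library left out. Over all 6 doses (13) there were 6 with eBayes without trend, 20 by limma-voom and 6 to 16 with 1 library left out. Without the 3 libraries over 0.08 from 0, a setting chosen after seeing the data, 1 member and 212 of all tested genes were lower at 50 µg/ml. The median of complex III at that dose was then -0.012 (against -0.069). The cause of these changes was not tested. The labels number the libraries of each dose 1 to 3. Deviations of same-numbered libraries correlated over 0.1 in 10 of 45 pairs (median 0.011, range -0.33 to 0.24). Those of differently numbered libraries did so in 15 of 90 (median -0.006, range -0.24 to 0.25). This gives no clear sign of pairing by number, but it is a description and does not settle the matter. With the replicate number as a block, 7 members were lower at 50 µg/ml, 7 lower and 1 higher at 100 µg/ml, and 14 over all doses. On simulated data about 50.0% of changes of 0.3 on the log2 scale were found. Those changes were placed in genes drawn from all tested ones. The simulation gave 107 calls, where the data gave 963 higher and 911 lower at 100 µg/ml. It therefore does not give the share of changes that would be found among the members. Differences that did not pass are not shown to be absent.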
